A study of Gallus gallus with 71 samples.

Results

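In RNA-seq libraries of the chick brain taken at hours 0 and 12 of a heat challenge, 49 of the 30108 genes in the count table were expressed almost only in libraries labelled Female. They were chosen by their CPM, a gene's count divided by the total count of its library and put on a common scale. In the libraries of hours 0 and 12, the lowest CPM over 23 libraries labelled Female had to be above 5, and the highest CPM over 24 libraries labelled Male had to be below 0.25 of that lowest female value. The difference between female and male libraries at these hours was therefore set by the choice and is given as a description without a test. The libraries of hour 2 were not used in the choice. Treatments, nuclei and hours were not contrasted by the rule, but their tests rest in part or in full on the same 23 female libraries. A gene that was low in 1 treatment, hour or nucleus would have been left out, so small differences in these tests are partly set by the choice. The mirrored rule, for genes limited to males, found 0 genes.

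The chicks were broilers (Hubbard x Cobb-500). Control eggs were incubated at 37.5 °C, and eggs given embryonic heat conditioning (EHC) were held at 39.5 °C for 12 h a day from embryonic day 7 to 16. On day 4 after hatch, chicks were taken before the challenge, as the baseline called hour 0, or after 2 and 12 h at 36 °C. Punches were taken from the hippocampal commissure's nucleus (nCPa), the preoptic anterior hypothalamus (POAH), which takes part in temperature control, and the paraventricular nucleus (PVN), which drives the pituitary stress response. Each group of 1 sex, treatment, nucleus and hour had 2 libraries, except the EHC females of the PVN at hour 12 with 1. The labels do not name the bird, although the 3 nuclei came from the same chicks, so libraries of different nuclei are not independent. The numbers in the library names mostly run in sets of a POAH, an nCPa and a PVN library of the same sex, treatment and hour, which may be single chicks. A punch holds many cell types, and fewer cells of a type cannot be told apart from less RNA per cell. The markers of the nuclei were not checked, since genes carry no symbol in the table, only Ensembl IDs.

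In birds the female is the heterogametic sex. She carries a Z and a W chromosome, and the male a pair of Z chromosomes and no W. Most W genes of the chicken are surviving partners of Z genes from the ancestral pair of autosomes, and many are expressed in a wide range of tissues, the brain included. Known examples are HINTW, a member of the HIT family present in many copies on the W, and ATP5F1AW, the W copy of the gene for the alpha subunit of ATP synthase. In the RefSeq annotation of GRCg7b, 170 genes are placed on the W, of which 109 are protein coding and 16 have a symbol other than a locus number. None of the 49 Ensembl IDs could be paired with a symbol or a position, so whether they lie on the W was not tested, and no name, role or sequence is given for them.

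Library totals were 910033 to 9370799 counts, with a median of 4157783. After a filter of more than 1 CPM in at least 4 libraries, 20363 genes were tested, and all 49 female-limited genes were among them. The 49 genes held 196106 counts in the 23 female libraries of hours 0 and 12 and 1885 counts in the 24 male libraries. Over the same libraries, the female mean was more than 4 times the male mean for 175 of the genes tested, the 49 included. The male mean was more than 4 times the female mean for 38.

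Before the results, 5 libraries of hour 2 have to be set apart. The summed CPM of the 49 genes fell into 2 ranges, 36 libraries from 1612 to 2534 CPM and 35 libraries from 5.42 to 43.1 CPM, with no library between them. In 66 of the 71 libraries the range went with the labelled sex. For the 23 female and 24 male libraries of hours 0 and 12 this was set by the rule. Only the 24 libraries of hour 2 could go against their label, and 5 did. The library labelled male EHC POAH, Sample_67, held 2337 CPM, the library labelled male EHC nCPa, Sample_68, held 2156 CPM, and the library labelled male EHC PVN, Sample_69, held 1906 CPM. The library labelled female control POAH, Sample_70, held 22.1 CPM, and the library labelled female control PVN, Sample_72, held 28.6 CPM. Sample_71, the library labelled female control nCPa and the shallowest of the series, with 910033 counts, held 1763 CPM. Its number lies between those of Sample_70 and Sample_72, so this set of consecutive numbers fell into both ranges. The labels were kept as given. For the tests that rest on these 5 libraries, the median log2 fold changes and the edgeR calls are given with and without them. Some other values, such as intervals, are given only with them.

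**Figure D1:**
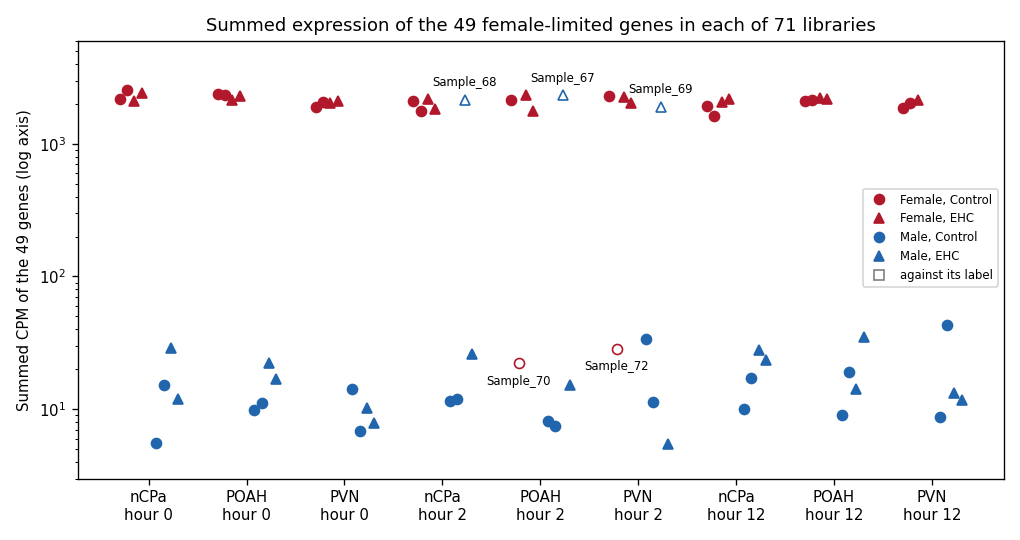
Summed CPM of the 49 genes (log axis) in each library, by nucleus and hour, with colour for labelled sex, shape for treatment and open symbols for the 5 libraries against their label. The upper cloud spans 1612 to 2534 CPM and the lower 5.42 to 43.1 CPM. All 5 open symbols are at hour 2, the only hour at which the rule allowed a library to go against its label.

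The 5 libraries followed the other range gene by gene and not in the sum alone. In Sample_67, Sample_68 and Sample_69, 45, 45 and 46 of the 49 genes were at or above the lowest value seen in a female library of hours 0 and 12. In Sample_70 and Sample_72, 48 and 44 of the 49 genes were at or below the highest value seen in a male library of those hours. Sample_71 had 37 of the 49 genes at or above the lowest female value and none at or below the highest male value. Across the 49 genes, the profile of the libraries in the upper range at hour 2 went with the female means at r from 0.84, in Sample_71, to 0.98. This is a description over genes that share a library.

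**Figure D2:**
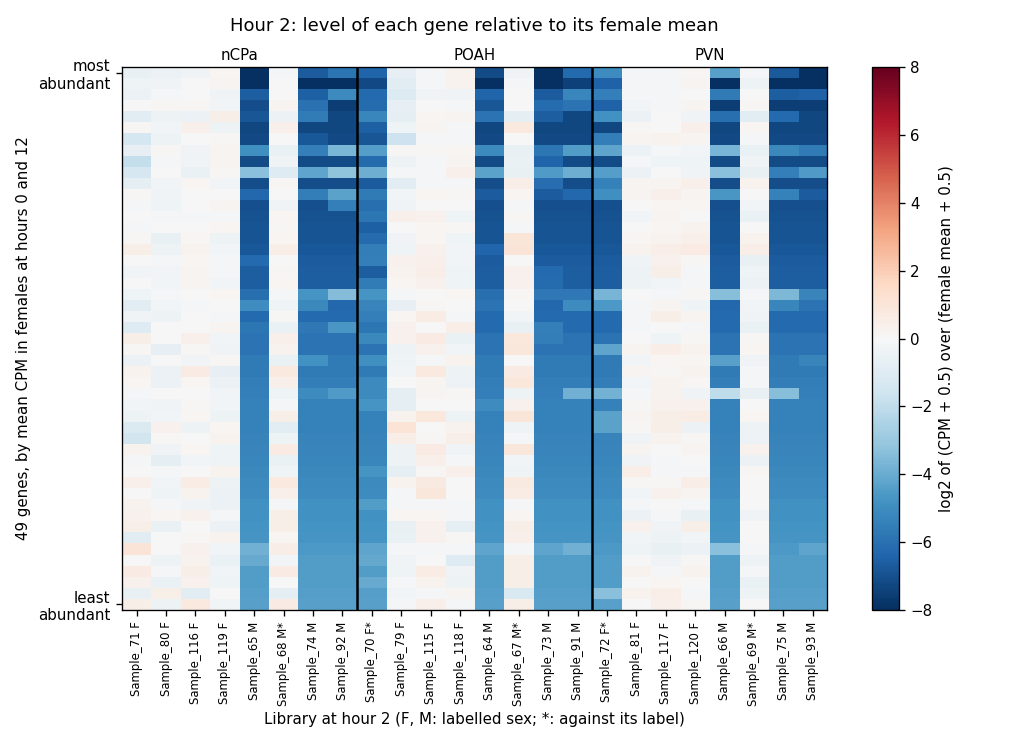
Colour shows the log2 ratio of each gene's CPM to its mean in the female libraries of hours 0 and 12 (0.5 CPM added to both), for 49 genes in rows and the 24 libraries of hour 2 in columns. Columns near 0 are libraries with female-like levels in nearly all genes, among them Sample_67, Sample_68 and Sample_69, labelled Male; blue columns lack them, among them Sample_70 and Sample_72, labelled Female.

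The level of the 49 genes in females was moderate and covered a wide range. The mean CPM over the 23 female libraries ran from 9.45 to 167, with a median of 29.7; 18 genes were above 50 CPM, 15 between 20 and 50 CPM and 16 below 20 CPM. The 10 most abundant genes held 44.7% of the summed female CPM. CPM is not divided by gene length, so this order is one of counts and not of molecules per cell.

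ENSGALG00010012781 was the most abundant. It ran from 121 to 231 CPM over the 23 female libraries, with a median of 165 CPM, and from 0 to 4.60 CPM over the 24 male libraries, with a median of 1.08 CPM. Its mean was 166 ± 36.1 CPM in the nCPa (SD, n = 8), 176 ± 32.8 CPM in the POAH (n = 8) and 159 ± 15.6 CPM in the PVN (n = 7), values that overlap throughout. ENSGALG00010012604, the second in abundance, ran from 88.1 to 190.4 CPM in females, with a median of 146 CPM, and from 0 to 2.16 CPM in males. At the other end, ENSGALG00010000250 had the lowest mean, 9.45 ± 2.10 CPM (SD, n = 23), with a range from 5.61 to 14.4 CPM in females and from 0 to 0.24 CPM in males. The least abundant gene thus had the same shape as the most abundant at a lower level, with its lowest female library above its highest male library, as the rule requires.

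**Figure D3:**
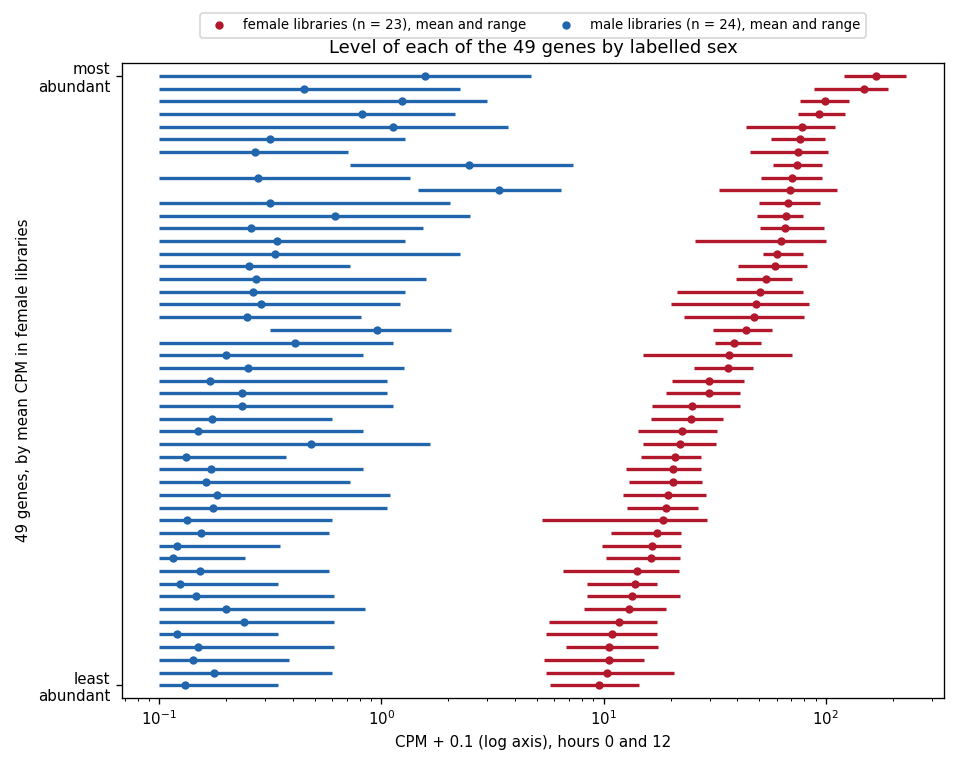
Mean (point) and range (bar) of each of the 49 genes over 23 female (red) and 24 male (blue) libraries of hours 0 and 12, as CPM + 0.1 on a log axis, ordered by female mean. The separation is set by the rule; the female means run from 9.45 to 167 CPM, and 2 genes near the top show the highest means in males, 2.38 and 3.29 CPM.

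Male libraries were near 0 in most of these genes but not in all. The male mean was below 1% of the female mean for 42 of the 49 genes, with a median of 0.35%, and above 2% for 2 genes. These 2 were ENSGALG00010012827, with a mean of 3.29 CPM and at most 6.33 CPM in a male library, and ENSGALG00010012393, with a mean of 2.38 CPM and at most 7.16 CPM. Both were above 0 in every male library of hours 0 and 12, with lowest values of 1.37 and 0.62 CPM, and so was ENSGALG00010012519, with a lowest value of 0.21 CPM. ENSGALG00010012827, ENSGALG00010012393 and ENSGALG00010012781 together made up 43.6% of the CPM that the 49 genes held in males, against 14.6% in females. At the other extreme, 4 genes had at most 3 counts in all 24 male libraries together. Whether the male counts come from these genes, from copies on other chromosomes or from other libraries was not tested.

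The male library that stood highest within the rule was a control library of the PVN at hour 12, Sample_174, at 43.1 CPM over the 49 genes. The other male libraries of the PVN at hour 12 held at most 13.3 CPM. Its highest gene was ENSGALG00010012781, at 3.61 CPM, so no single gene carried the sum.

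The edge of the rule was not crowded on the male side. The ratio of the highest male to the lowest female CPM was under 0.1 for 46 of the 49 genes, and the remaining 3 were at 0.104, 0.124 and 0.192. Just outside, the nearest genes with enough expression were at 0.306, 0.347 and 0.483. On the side of abundance it was closer, with the lowest female CPM at 5.19, 5.26 and 5.40 in the 3 genes just inside and 4.99, 4.36 and 4.15 in the 3 just outside. With a floor of 1 CPM in place of 5, 63 genes met the rule, the 49 included, as a lower floor requires.

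The 49 genes lie in 2 stretches of the count table, 33 in a run of 151 rows and 16 in a run of 124 rows. The rows between them in these runs that passed the filter numbered 82 and 58. Of these, 43 and 14 had a female mean more than 4 times the male mean, and in none was the male mean more than 4 times the female mean. Row order is a property of the table and was not used to place any gene.

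Among female libraries of hours 0 and 12, the levels varied about as much as those of other genes. The highest female library was from 1.51 to 5.61 times the lowest, with a median of 2.16 times over the 49 genes; 15 genes stayed below 2 times and 3 were above 4 times. The SD of log2 CPM over these 23 libraries had a median of 0.28, beside 0.32 over 9841 other tested genes in the same range of mean CPM. The rule favours genes with no low female library, so this SD is a description.

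The hour 2 libraries asked whether the sex difference held in samples that the choice had not used. With the labels as given, all 49 genes had a higher fitted level in females in each nucleus, with median log2 fold changes of 2.83 (nCPa), 2.44 (POAH) and 2.13 (PVN). None passed the threshold, set at an adjusted p of 0.1 (quasi-likelihood test of edgeR, Benjamini-Hochberg, 4 libraries against 4), and 0% of all genes did in each nucleus. DESeq2, run as an alternative, called 1 of the 49 genes in the nCPa as higher in females, beside 0.0479% of all genes. At an unadjusted p under 0.05 there were 16, 3 and 0 of the 49 genes in the nCPa, POAH and PVN, beside 4.33%, 14.3% and 6.46% of all genes. The groups did not overlap for 3 genes in the nCPa, where 1.86% of all genes did not overlap, and for 0 genes in the POAH and PVN, beside 7.43% and 6.28%.

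The single values show which libraries made the groups overlap. ENSGALG00010012781 was at 109, 121, 140 and 187 CPM in the 4 libraries labelled female and at 0.18, 1.16, 2.47 and 151 CPM in the 4 labelled male, the last being Sample_68. In the PVN it was at 4.57, 154, 160 and 180 CPM in those labelled female, the first being Sample_72, and at 0, 1.08, 7.94 and 150 CPM in those labelled male, the last being Sample_69. ENSGALG00010012604 had the same pattern in the POAH, with 0.50, 83.2, 137 and 182 CPM in those labelled female and 0, 0, 0.35 and 133 CPM in those labelled male. For all 49 genes, groups that overlapped did so only through the libraries against their label.

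Without those 5 libraries the median log2 fold change was 8.95 (nCPa), 8.67 (POAH) and 8.77 (PVN). By the same edgeR fit, 49, 45 and 49 of the 49 genes were higher in females at the same threshold, beside 0.363%, 0.319% and 1.17% of all genes. The 49 genes were also free of overlap in all 3 nuclei, beside 5.18%, 16.2% and 20.4% of all genes. The 5 libraries were recognised by these same genes, so these counts are a description and support nothing further.

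Heat conditioning of the embryo was compared with control incubation in female libraries of hours 0 and 12, with hour in the model. None of the 49 genes was called in the nCPa, POAH or PVN (edgeR, adjusted p of at most 0.1), where 0% of all genes were called in each. The log2 fold changes of EHC against control ran from -0.40 to 0.48 in the nCPa, with a median of 0.04 (4 libraries against 4). They ran from -0.50 to 0.43 in the POAH, with a median of -0.06 (4 against 4), and from -0.34 to 0.47 in the PVN, with a median of 0.07 (3 against 4). At an unadjusted p under 0.05 there were 1, 0 and 0 of the 49 genes, beside 2.68%, 1.92% and 2.94% of all genes. The 95% interval lay within a 2-fold change either way for 48, 47 and 47 of the 49 genes, so larger changes are outside the interval for most of these genes and smaller ones are not. The rule left out genes that were low in any of these female libraries, so the changes were partly bounded by the choice.

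In the PVN, 5 of the 49 genes were higher in each of the 3 EHC libraries than in each of the 4 control libraries, and none was lower in all, beside 3% of all genes with EHC higher. ENSGALG00010012906 was among them, with 82.5, 89.1 and 102 CPM in EHC and 62.6, 71.3, 73.7 and 76.0 CPM in control libraries. Its log2 fold change was 0.33 (SE 0.16, edgeR adjusted p = 1). The groups thus did not overlap in their CPM, but the difference did not pass the test. No gene of the 49 separated EHC from control libraries in the nCPa or the POAH, beside 2.1% and 1.58% of all genes.

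Between hour 12 and hour 0 of the challenge, none of the 49 genes was called in females of any nucleus (edgeR, adjusted p of at most 0.1, 0% of all genes called in each). The log2 fold changes ran from -0.74 to 0.55 (nCPa, median -0.05), from -0.40 to 0.46 (POAH, median 0.04) and from -0.30 to 0.26 (PVN, median 0.01). The 95% interval lay within a 2-fold change for 42, 48 and 49 of the 49 genes. At an unadjusted p under 0.05 there were 6, 1 and 0 genes, beside 5.37%, 6.29% and 3.13% of all genes.

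In the nCPa, 5 of these 6 genes were lower and 1 was higher at hour 12, and the 5 are the co-varying genes described further on. ENSGALG00010013706 was at 52.6, 55.8, 74.4 and 84.1 CPM in the 4 female libraries of hour 0 and at 19.9, 37.2, 37.3 and 44.8 CPM in those of hour 12. The hours did not overlap, and edgeR gave a log2 fold change of -0.74 (SE 0.20, unadjusted p = 0.0044, adjusted p = 0.81). ENSGALG00010013319 went the other way, from 76.5, 82.4, 82.6 and 96.3 CPM at hour 0 to 92.4, 103, 110 and 115 CPM at hour 12. Here edgeR gave 0.55 (SE 0.20, unadjusted p = 0.019, adjusted p = 0.81), and the hours overlapped in 1 library on each side. Neither passed the test over all genes.

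The scale of the values matters in this comparison. In the CPM of the nCPa, 5 of the 49 genes were lower in all 4 libraries of hour 12 than in all 4 of hour 0, and none was higher in all, beside 5.35% of all genes with hour 12 lower. The median log2 ratio of hour 12 to hour 0 was -0.21 over all tested genes and -0.26 over the 49 genes in CPM. After scaling by TMM, edgeR's correction for composition, these medians were 0.00 and -0.04, and 1 of the 49 genes was lower and 1 higher in all libraries of hour 12, beside 2.205% and 1.709% of all genes. The control library Sample_146 of hour 12 had the lowest TMM factor of the 71 libraries, 0.77, and the lowest sum of the 49 genes in the upper range, 1612 CPM. The edgeR values above are on the TMM scale.

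The most abundant gene shows the same. ENSGALG00010012781 was at 166, 188, 192 and 231 CPM in the nCPa at hour 0 and at 121, 129, 152 and 152 CPM at hour 12, without overlap in CPM, and its log2 fold change on the TMM scale was -0.26 (SE 0.16, edgeR adjusted p = 0.81). In the POAH the gene with an unadjusted p under 0.05 was ENSGALG00010012604, with 145, 153, 182 and 190 CPM at hour 0 and 88.1, 127, 137 and 144 CPM at hour 12. Its hours did not overlap either, the only such case in the POAH, beside 2.04% of all genes with hour 12 lower. Its log2 fold change was -0.39 (SE 0.16, edgeR adjusted p = 0.78). In the PVN, 1 of the 49 genes was higher in all libraries of hour 12, beside 1.57% of all genes.

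**Figure D4:**
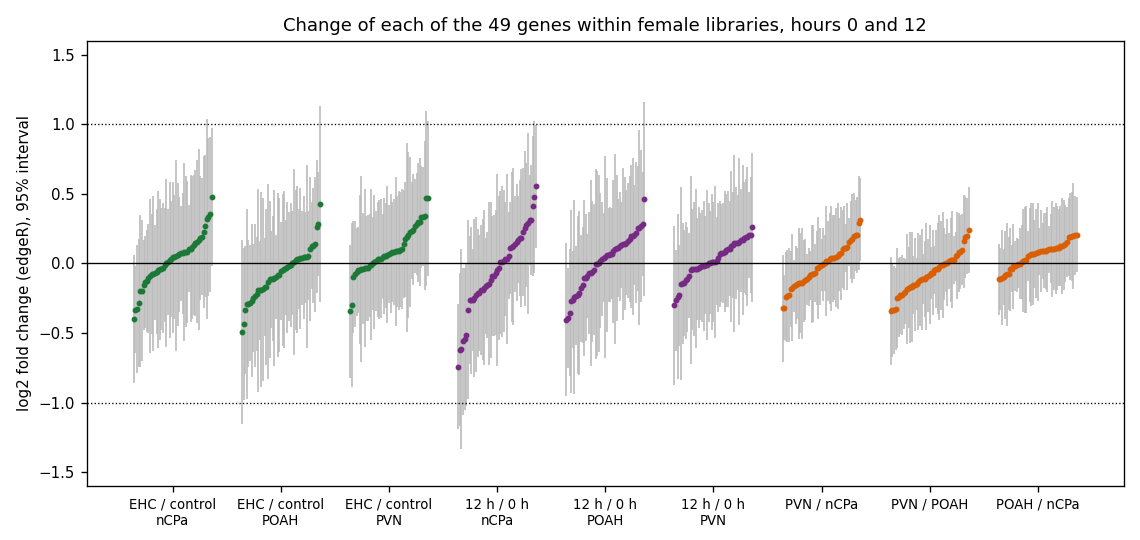
log2 fold change (points) and 95% interval (grey) of the 49 genes in 9 comparisons within female libraries of hours 0 and 12, from edgeR, sorted within each comparison, with dotted lines at a 2-fold change. The points lie between -0.74 and 0.55, the widest spread being that of hour 12 against hour 0 in the nCPa.

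Hour 2 against hour 0 in females depended on the libraries against their label. In the nCPa, where no female library was against its label, the log2 fold changes ran from -0.57 to 0.29 with a median of -0.08, and none of the 49 genes was called (edgeR, 0% of all genes called). In the POAH all 49 genes were lower at hour 2, with a median of -0.60, and without Sample_70 the median was -0.05. In the PVN the median was -0.24, and without Sample_72 it was 0.18. None of the 49 genes was called in these nuclei with or without these libraries (edgeR, 0% of all genes called in the POAH and 1.91% in the PVN, 0.00491% and 0.928% without them). At an unadjusted p under 0.05 there were 1, 0 and 0 genes in the 3 nuclei, beside 7.76%, 6.13% and 14.6% of all genes, and 5 in the PVN without Sample_72, beside 13.5% of all genes.

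The nuclei were compared in the female libraries of hours 0 and 12, with treatment and hour in the model. None of the 49 genes was called in PVN against nCPa, PVN against POAH or POAH against nCPa (edgeR, adjusted p of at most 0.1), and 0% of all genes were called in each. This fit treats libraries of different nuclei as independent, and with the sets of library numbers as a replicate block 5.45% of all genes and none of the 49 were called in PVN against nCPa. The log2 fold changes ran from -0.32 to 0.31, from -0.34 to 0.24 and from -0.11 to 0.21, and in all 3 comparisons the 95% interval of all 49 genes lay within a 2-fold change. At an unadjusted p under 0.05 there were 2, 2 and 0 of the 49 genes, beside 15%, 9.48% and 6.62% of all genes.

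Between PVN and nCPa the 2 genes were ENSGALG00010012211 and ENSGALG00010013248. ENSGALG00010012211 had a median of 64.9 CPM in the PVN (49.4 to 83.3, n = 7) and 92.3 CPM in the nCPa (43.6 to 110, n = 8). The ranges overlapped, with a log2 fold change of -0.32 (SE 0.11, edgeR adjusted p = 0.27). ENSGALG00010013248 had a median of 21.4 CPM in the PVN (19.8 to 27.01) and 19.5 CPM in the nCPa (14.6 to 22.2), with a log2 fold change of 0.31 (SE 0.14, edgeR adjusted p = 0.31). Without Sample_146 both passed, at an adjusted p of 0.083 and 0.092 from edgeR, the only calls among the 49 genes in that fit, which called 6.74% of all genes.

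Across the 23 female libraries, the 49 genes moved together only in part. Over the 1176 pairs, the correlation of log2 CPM had a median of 0.28, from -0.84 to 0.96, and 23 pairs were above 0.8. On the TMM scale the median was 0.10. These libraries share birds, depth and composition, so the correlations are a description without a test.

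A tight group of 5 genes stood out and was chosen after its values were seen. ENSGALG00010013700, ENSGALG00010013702, ENSGALG00010013706 and ENSGALG00010013712, in 4 consecutive rows of the table, and ENSGALG00010011988, at another place in it, correlated at 0.93 to 0.96 with each other, and at 0.89 to 0.93 on the TMM scale. They ran against ENSGALG00010011931 and ENSGALG00010013319, at -0.74 to -0.55 in CPM and -0.67 to -0.50 on the TMM scale. This pair was also chosen after its values were seen, for running the other way, so the negative sign was set by the choice. With the other 42 genes they correlated at -0.41 to 0.85 in CPM, with a median of 0.50, so the group is not sharply set off. The lowest correlation of all pairs, -0.84, was between genes outside the 5. In the nCPa the sum of the 5 genes was 226 to 404 CPM at hour 0 (median 326) and 105 to 246 CPM at hour 12 (median 196), with an overlap between the hours. In the POAH the medians were 289 and 224 CPM, and in the PVN 208 and 183 CPM. The opposing pair of genes summed to a median of 166 CPM in the nCPa at hour 0 and 202 CPM at hour 12. All these sums are in CPM without TMM scaling. Between these hours of the nCPa, the median log2 ratio over all tested genes was -0.21 in CPM and 0.00 after TMM. The lowest sum of the 5 genes, 105 CPM, was that of Sample_146, with a TMM factor of 0.77. The part of library composition in these sums was not tested. The sum of the 5 genes went with the total count of the library at r = -0.50 over the 23 libraries, and its part in their co-variation was not tested. Where genes overlap or share sequence, counts can be split between them, and whether these 5 do was not tested.

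**Figure D5:**
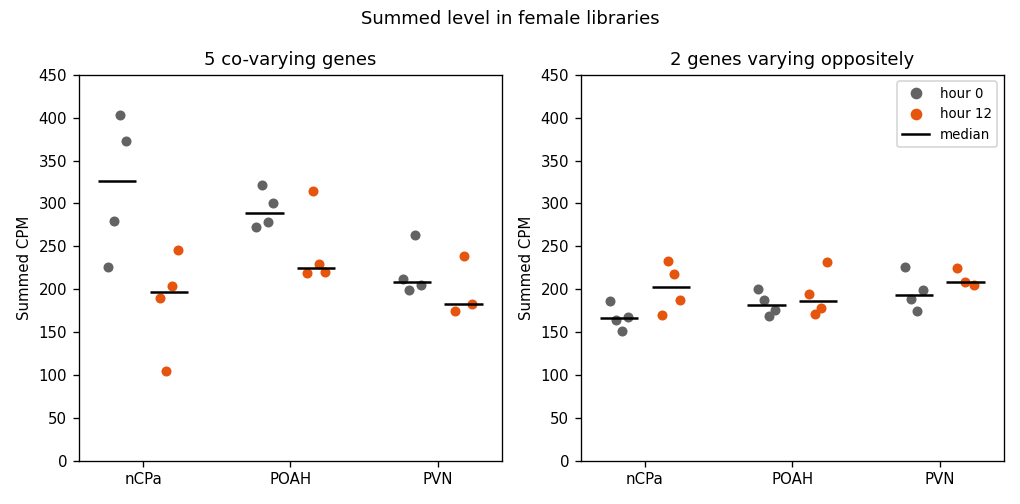
Summed CPM of the 5 co-varying genes (left) and of the 2 genes that varied oppositely (right) in the female libraries of hours 0 and 12, by nucleus, with 1 point a library and a line at the median. Both sets were chosen after their values were seen, and the CPM is not scaled by TMM. At hours 0 and 12 the left medians are 326 and 196 CPM (nCPa), 289 and 224 CPM (POAH), and 208 and 183 CPM (PVN); the right medians stay between 166 and 208 CPM.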

How the data were processed

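Stranded libraries of total RNA depleted of ribosomal RNA were trimmed by the authors with Trimmomatic 0.39, aligned to the chicken genome with HISAT2, filtered with SAMtools 1.10, freed of duplicates, and counted per gene of the Ensembl annotation of GRCg7b with featureCounts. Whether the counting used the strand is not given in the sources used here, so antisense and overlapping genes may share counts. The authors deposited raw counts, as whole numbers, of 30108 genes in 71 libraries. Uniquely aligned reads lower the counts of genes with near-identical copies, as W genes and their Z partners can be.

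CPM was taken over library totals of the unfiltered counts. Tests used edgeR 4.0.16 in R 4.3.3 (TMM scaling, quasi-likelihood fit), on genes with more than 1 CPM in at least 4 libraries, fitted to the groups being compared, with treatment or hour as covariates, and Benjamini-Hochberg adjustment over all 20363 genes. Genes were called at an adjusted p of at most 0.1. Each SE was taken as the size of the log2 fold change divided by the root of F. edgeR and DESeq2 were checked on simulated counts with known changes. Of 100 log2 changes of size 1, edgeR called 25 (EHC against control, nCPa), 29 (sexes at hour 2, POAH) and 40 (hour 12 against hour 0, PVN). It called 86 in POAH against nCPa and 98 in PVN against POAH. The simulated libraries were drawn independently of each other, unlike the nuclei, which came from the same chicks. Of 100 log2 changes of size 2 it called 88 to 100. False calls were 11 to 30 with edgeR and 49 to 58 with DESeq2, of 20363 genes. The 30 of edgeR, in hour 12 against hour 0 of the PVN, stood beside 40 and 96 correct calls of size 1 and 2. DESeq2 made 51 beside 46 and 92 for the sexes at hour 2 in the POAH. In both, the share of false calls was above the 0.1 that the threshold sets. For DESeq2 the share was above 0.1 in every comparison simulated. For edgeR it was also above 0.1 in EHC against control of the nCPa, with 16 beside 25 and 93. The same held for edgeR in PVN against POAH, with 24 beside 98 and 100. The share for edgeR was below 0.1 in POAH against nCPa, with 11 beside 86 and 98, and for the sexes at hour 2 in the POAH, with 11 beside 29 and 88. The alternatives were DESeq2 1.42.0, edgeR with the size factors of DESeq2, all genes without the filter, other covariates or hours, each library left out, the libraries of hour 2 against their label left out, and the sets of library numbers as a replicate block; CPM on TMM library sizes was added after seeing the data. Replicates are separate libraries, and p-values measure the spread between them. In the comparisons of nuclei without the block, this spread mixes libraries of the same chick with libraries of different chicks.

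The 49 genes and the lists here were chosen with earlier results of these data known. Genes named are the most and least abundant, those nearest the threshold, those highest in males and those with the smallest p in a comparison. The co-varying genes and the opposing pair were added after their values were seen. Plots were drawn with matplotlib 3.10.9.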

Additional observations from a re-analysis of the deposited data

Results flagged for a closer look

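The sum of the 49 genes was checked for single libraries far from the others in each group of 4 to 10 libraries of 1 labelled sex, nucleus and hour, and the sum of the 5 co-varying genes in the female groups. The rate that chance gives, about 1 in 20, holds for independent groups and cannot be applied here. The rule had bounded part of the sums, and the 5 genes were chosen after their values were seen. Sample_67, Sample_68 and Sample_69 have consecutive numbers and may come from a single chick. Sample_70, Sample_71 and Sample_72 are also consecutive and share labels of sex, treatment and hour, but held 22.1, 1763 and 28.6 CPM. That set was split between the ranges, and the reason was not tested. The count of groups is therefore a description. Distance was taken as the gap to the nearest other library divided by the range of the group. Of 25 groups checked, 6 held a library far from the others, with distances of 0.8646 to 0.9967. In 4 of them it was a library of hour 2 against its label: Sample_72, labelled female PVN, at 28.6 CPM, Sample_68, labelled male nCPa, at 2156 CPM, Sample_67, labelled male POAH, at 2337 CPM, and Sample_69, labelled male PVN, at 1906 CPM. The fifth was Sample_174, labelled male PVN at hour 12, at 43.1 CPM. The last was Sample_145, labelled female POAH at hour 12, in which the 5 co-varying genes summed to 315 CPM. It had 1580930 counts, the fewest of the 23 female libraries of hours 0 and 12. Over these libraries the sum of the 5 genes went with the total count at r = -0.50, and the part of depth was not tested. Sample_70, also against its label, was not flagged by this measure. It held 22.1 CPM, and the other libraries labelled female POAH at hour 2 held 1761 to 2337 CPM.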

How the results depend on the processing

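The number of genes chosen changed with the setting. A ratio of 0.1 gave 46 genes, a ratio of 0.5 gave 53 and a floor of 1 CPM gave 63. Leaving out each library in turn gave 49 to 55 genes (55 without Sample_146). A looser ratio or floor, or fewer libraries, can only keep or add genes, and a stricter ratio can only remove them. Only the same rule on the TMM scale could exchange genes, and it gave 51, of which 48 were among the 49. The tests within females gave 0 calls among the 49 genes under each alternative run, except for PVN against nCPa, where leaving out each library in turn gave 0 to 2 calls; the 2 were ENSGALG00010012211 and ENSGALG00010013248 without Sample_146, where 6.74% of all genes were called. In females against males at hour 2, as labelled, DESeq2 called 1 of the 49 genes in the nCPa, beside 0.0479% of all genes. Without a filter, edgeR called 49 (nCPa) and 48 (PVN) as higher in females, beside 0.899% and 0.651% of all genes. With the filter and without the libraries against their label, edgeR called 49 (nCPa), 45 (POAH) and 49 (PVN), beside 0.363%, 0.319% and 1.17%. Leaving out each library in turn gave 0 to 49 calls in the nCPa (49 without Sample_68, beside 0.363% of all genes), 0 in the POAH and 0 to 39 in the PVN (39 without Sample_69, beside 0.246%). The libraries against their label, Sample_68 and Sample_69 among them, were recognised by these same genes. The calls without them are therefore a description and support nothing further. The cause of the gain without a filter was not tested. With CPM on the TMM scale, chosen after seeing the data, the genes whose groups did not overlap went from 0 to 1 for EHC in the nCPa (lower, beside 0.894% of all genes on that scale), from 5 to 2 for hour 12 in the nCPa (1 each way, beside 1.709% higher and 2.205% lower) and from 1 to 2 for hour 12 in the PVN (higher, beside 1.78%).

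The numbers in the library names mostly run in sets of 3, which were taken as a replicate block for the nuclei. The labels do not say that they mark a bird. At hour 2, outside this fit, the set of Sample_70, Sample_71 and Sample_72 was split between the ranges. With this block 0 of the 49 genes were called in the 3 comparisons of nuclei, while the count over all genes in PVN against nCPa went from 0 to 641 higher and 469 lower. DESeq2 called genes where edgeR called none over all genes, 33 higher and 85 lower in PVN against nCPa and 346 and 293 in females against males of the POAH at hour 2, but no further gene of the 49. Its test in EHC against control in the nCPa gave an adjusted p for 2 of the 49 genes.

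With at most 2 libraries for each sex, treatment, nucleus and hour, small changes with treatment or hour cannot be told apart from none. The rule left out genes low in any female library of hours 0 and 12, so changes of the 49 genes were partly bounded by the choice. For EHC against control and hour 12 against hour 0, the intervals of most of the 49 genes lay within a 2-fold change. For hour 2 against hour 0, this held for 44 of the 49 genes in the nCPa. In the POAH and PVN, with the labels as given, it held for 0 genes, and the intervals without Sample_70 and Sample_72 are not given here. There, changes larger than 2-fold cannot be told apart from none either.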
